A study of Rattus norvegicus with 6 samples.

Results

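The enzymes that break tryptophan down to kynurenine and on to quinolinate were followed in 6 bulk RNA-seq libraries of rat liver. The 9 genes, chosen by symbol from 32623 in the deposited table, are Tdo2, Ido1, Ido2, Afmid, Kmo, Kynu, Haao, Acmsd and Qprt. Of the libraries, 3 (GZM 1 to 3) came from liver embolized with ZnS (zinc sulfide) microspheres and 3 (GM 1 to 3) from the control group, embolized with blank microspheres. Both groups were thus embolized, that is, microspheres were used to block vessels that feed the tissue, and all samples are labelled liver. The labels used here give neither the strain, age or interval after embolization nor whether a piece held tumour, and they do not say that the replicate samples are separate animals. The p-values then measure only the spread between these samples, which may be technical.

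Tryptophan catabolism opens with a dioxygenase that splits the indole ring. Hepatocytes use Tdo2 for this, which sets the use of tryptophan by the whole body, while Ido1 does the same chemistry in dendritic cells, macrophages and other cells under interferon gamma and is known for restraining T cells. The product passes through Afmid to kynurenine, then through Kmo, Kynu and Haao to an unstable intermediate. That intermediate closes on its own to quinolinate, which Qprt turns toward NAD, or is drawn off by Acmsd toward full oxidation.

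Of the 9 members, 8 were higher in GZM than in GM and Ido1 alone was lower. All 9 were above the low-count filter, and all 9 passed edgeR's quasi-likelihood test at an adjusted p under 0.05, with a median log2 fold change of 2.25. Across all 14298 tested genes 44.0% passed, 22.2% as higher and 21.7% as lower, with a median of -0.09 on this scale. In deposited FPKM, which scales a count by exon length and by the library's summed count, the groups of each member did not overlap. Nor did they in TMM-scaled CPM, where every GZM library lay above every GM library for 8 members and below for Ido1. Among all tested genes 58.1% had groups that did not overlap on that scale, 28.4% with GZM above and 29.7% with GZM below. The fold changes use TMM scaling, which FPKM lacks, so they exceed the ratios of the FPKM shown for members that were higher. The members together took 0.118%, 0.0983% and 0.0849% of all counts in GZM 1, 2 and 3, against 0.0255%, 0.0173% and 0.0530% in GM 1, 2 and 3. Total counts ran from 13443115 to 16604067 per library. The scale matters: on library totals the median of all genes moved to -0.92, with 1315 genes higher and 8513 lower in place of 3181 and 3104. On that scale too the same 8 members were higher and Ido1 lower, each past the test.

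**Figure D1:**
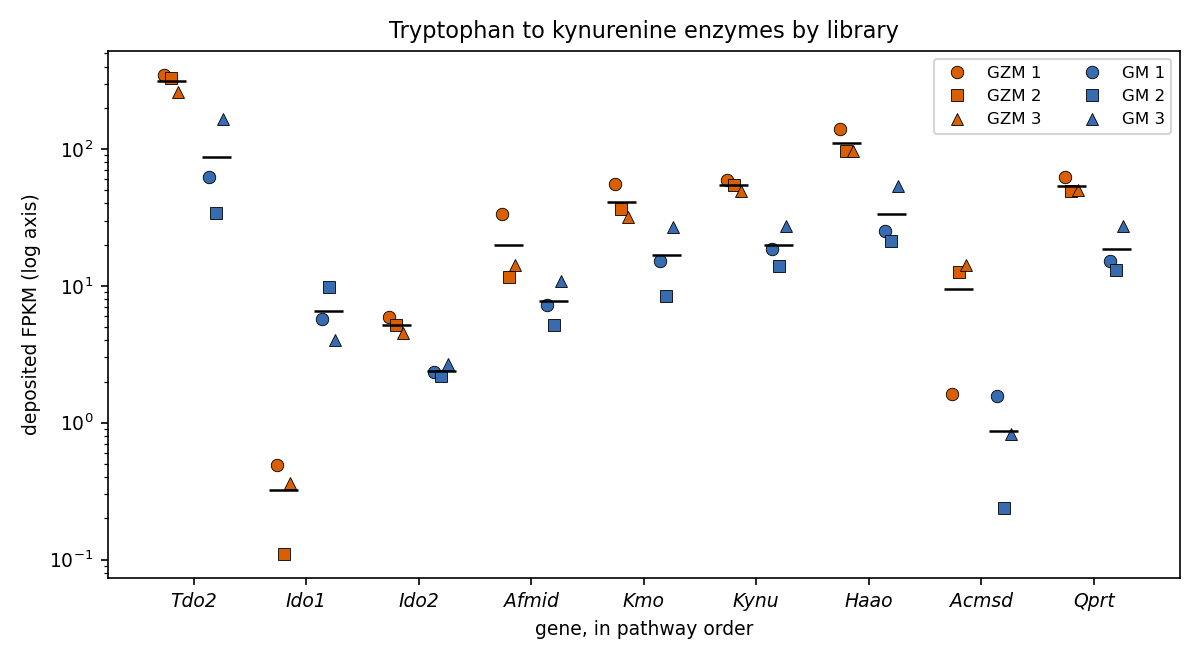
Deposited FPKM of the 9 members in each library on a log axis, GZM in orange and GM in blue, with a symbol per replicate number and a black line at each group mean (n = 3 each). The GZM libraries lie above the GM libraries for 8 members and below them for Ido1, and for Acmsd GZM 1 (1.62) lies next to GM 1 (1.56).

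Tdo2 (ENSRNOG00000011612, chromosome 2, 180897011 to 180914940 as deposited, in a build that is unsettled for all gene positions given), the liver dioxygenase, was the most abundant member in both groups. Its level was 349.3, 330.7 and 260.8 FPKM in GZM 1, 2 and 3, against 62.7, 34.3 and 164.7 FPKM in GM 1, 2 and 3. The GZM libraries lay close together, while GM 3 stood well above the other GM libraries. GZM exceeded GM by a log2 fold change of 2.60 ± 0.61 (SE), or 6.05-fold (edgeR adjusted p = 0.0116). Without GM 3 it was 3.66. Of the libraries left out in turn, GM 1 gave the highest edgeR adjusted p, 0.0485. Gene models on the opposite strand overlap Tdo2 in the table, and they held 120 and 84 counts in GZM and 33 and 22 in GM, against 24228 counts of Tdo2 in GZM and 7402 in GM.

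The promoter sequence of Tdo2 is shown because this gene was the most abundant member in every library. Promoters are from RefSeq (build GRCr8), which had an entry for 6 of the 9 members and none for Ido1, Ido2 or Acmsd. Each window is the 250 bases before the gene's start. Of 7 motifs searched on both strands, chosen after the values and sequences had been seen, Tdo2 held 3, given in capitals. In order they are TATAAA, the TATA box letters, here 228 to 223 bases before the start, the palindrome ACANNNTGT of steroid receptors, and a CCAAT box read on the other strand (CCAAT). Over all 27457 windows, 13.1% held TATAAA, 5.62% held ACANNNTGT and 34.3% held CCAAT. The window is chr2:169585587-169585836 on the minus strand.
Tdo2: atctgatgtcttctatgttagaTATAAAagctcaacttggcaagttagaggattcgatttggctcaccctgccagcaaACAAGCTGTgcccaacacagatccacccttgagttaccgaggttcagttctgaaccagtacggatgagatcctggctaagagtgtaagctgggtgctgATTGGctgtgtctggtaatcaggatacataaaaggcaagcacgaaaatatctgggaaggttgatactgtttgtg

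Ido1 (ENSRNOG00000031189, chromosome 16, 72216326 to 72228098), the dioxygenase of immune cells, moved the other way. It had 0.49, 0.11 and 0.36 FPKM in GZM 1, 2 and 3, against 5.73, 9.81 and 3.99 FPKM in GM 1, 2 and 3. These levels rest on 8, 2 and 7 reads in the GZM libraries, against 102, 199 and 81 in the GM libraries. Every GZM library was far below every GM library, and GM 2 was the highest. For Ido1 the log2 fold change was -3.50 ± 0.53 (SE), or 11.3-fold lower in GZM (edgeR adjusted p = 0.00294).

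Ido2 (ENSRNOG00000025365, chromosome 16, 72268943 to 72289156), a paralog of Ido1 with weak activity that is made in liver and kidney, was higher in GZM. It lies 40844 bases from Ido1 on the same strand with no other gene of the table between them. Its level was 5.91, 5.18 and 4.53 FPKM in GZM 1, 2 and 3, against 2.33, 2.20 and 2.69 FPKM in GM 1, 2 and 3. Both groups were tight and did not overlap. On the log2 scale the fold change was 1.93 ± 0.29 (edgeR adjusted p = 0.003). The neighbouring paralogs thus changed in opposite directions, Ido2 standing above Ido1 in every GZM library and Ido1 above Ido2 in every GM library.

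The balance between the liver and immune forms was compared within each library, where the scaling between libraries drops out. Tdo2 stood 713-fold, 3006-fold and 725-fold above Ido1 in GZM 1, 2 and 3, against 10.9-fold, 3.49-fold and 41.3-fold in GM 1, 2 and 3, as ratios of FPKM. The groups did not overlap. On log2(FPKM + 0.01), the mean ratio was 10.1 ± 1.14 in the GZM libraries, against 3.54 ± 1.78 in the GM libraries (SD, 3 libraries a group). The difference of 6.57 gave p = 0.1 in an exact two-sided permutation test, the smallest that 3 against 3 libraries allow. Of the summed FPKM of the 3 dioxygenases, Ido1 held 0.138%, 0.0327% and 0.135% in GZM 1, 2 and 3, against 8.09%, 21.2% and 2.33% in GM 1, 2 and 3. Tdo2 therefore held the largest share of these transcripts in all 6 libraries, with its lowest share, 74.0%, in GM 2.

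Other ratios within a library set the branches side by side, 4 having been computed in all. Ido2 over Ido1 had a mean log2 ratio of 4.21 ± 1.06 in GZM libraries and -1.34 ± 0.79 in GM libraries (exact permutation p = 0.1, and 0.2 after Benjamini-Hochberg adjustment over the 4 ratios, as for Tdo2 over Ido1). Tdo2 over Ido2, the pair of dioxygenases that both rose, had 5.91 ± 0.08 in GZM and 4.88 ± 0.99 in GM (exact permutation p = 0.3, adjusted p = 0.3). GM 3, at 5.93, fell within the GZM range of 5.84 to 5.99 for this pair.

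**Figure D2:**
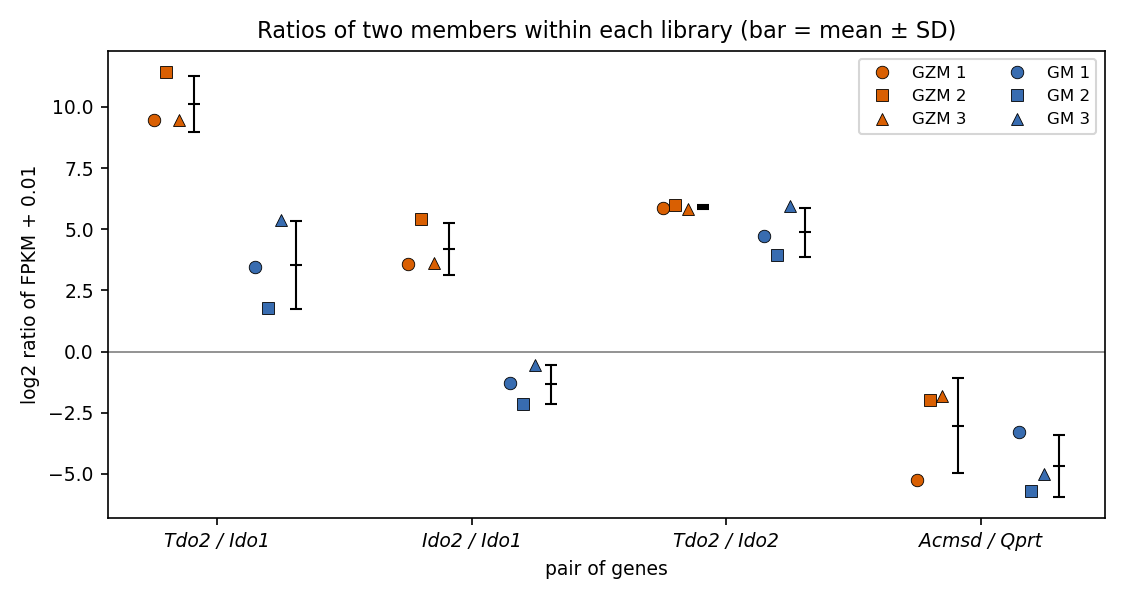
Log2 ratio of FPKM + 0.01 for 4 pairs of members within each library, GZM in orange and GM in blue, with mean ± SD beside the points (n = 3 each). For Tdo2 over Ido1 and Ido2 over Ido1 the groups are apart, and for Tdo2 over Ido2 and Acmsd over Qprt they overlap.

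Afmid (ENSRNOG00000050205, chromosome 10, 106828981 to 106844314), the formamidase that releases kynurenine, had 33.7, 11.7 and 14.2 FPKM in GZM 1, 2 and 3, against 7.25, 5.14 and 10.9 FPKM in GM 1, 2 and 3. GZM 1 stood far above the rest, and GZM 2 was only just above GM 3. Afmid had a log2 fold change of 2.15 ± 0.48 (edgeR adjusted p = 0.0101). Without GZM 1 it was 1.53, and the call was kept (adjusted p = 0.0213). In the deposited table Afmid begins 97 bases from Tk1, the thymidine kinase of dividing cells, which is read from the opposite strand. Tk1 is no enzyme of the pathway and was named after its values were seen. It had 6.91, 8.14 and 9.17 FPKM in GZM 1, 2 and 3, against 43.3, 70.7 and 22.4 FPKM in GM 1, 2 and 3. Tk1 thus fell while Afmid rose, at a log2 fold change of -1.62 ± 0.33 (edgeR adjusted p = 0.00681).

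The stretch between the RefSeq starts of Tk1 and Afmid is shown because it separates 2 genes that changed in opposite directions. It holds 96 bases on the plus strand, at chr10:103544778-103544873 (GRCr8). The only motif of the 7 searched that it holds is a GC box (GGGCGG, in capitals), present in 32.4% of all windows.
Tk1 to Afmid: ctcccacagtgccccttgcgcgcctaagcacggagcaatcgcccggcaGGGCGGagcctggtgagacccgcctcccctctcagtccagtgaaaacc

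Kmo (ENSRNOG00000003709, chromosome 13, 93684437 to 93716227), the monooxygenase that commits kynurenine to the quinolinate branch, had 55.3, 36.3 and 31.8 FPKM in GZM 1, 2 and 3, against 15.3, 8.47 and 26.9 FPKM in GM 1, 2 and 3. GM 3 was not far below GZM 3 on the FPKM scale. Kmo had a log2 fold change of 2.06 ± 0.47 (edgeR adjusted p = 0.0108), and 2.76 without GM 3.

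The Kmo window, chr13:90089271-90089520 on the plus strand, is shown because it held the rarest of the motifs searched. Read on the other strand, it holds CAAAGTCCA, a binding sequence of the hepatocyte factor HNF4, at 74 to 66 bases before the start. That sequence was present in 0.331% of all windows, 91 in number. It overlaps a CCAAT box on the same strand, so both lie in the second run of capitals. The first run of capitals is the interferon response element, a pair of GAAA repeats with 2 bases between them, present in 3.29% of windows. A match is a description of letters and no evidence of binding. TTCNNNGAA, the interferon gamma activated site, was in 7.52% of all windows and in none of the 6 members' windows. Ido1 is not among these 6, so its promoter was not searched. Kynu held a CCAAT box and Afmid the GC box given above, while the Haao and Qprt windows held none of the 7.
Kmo: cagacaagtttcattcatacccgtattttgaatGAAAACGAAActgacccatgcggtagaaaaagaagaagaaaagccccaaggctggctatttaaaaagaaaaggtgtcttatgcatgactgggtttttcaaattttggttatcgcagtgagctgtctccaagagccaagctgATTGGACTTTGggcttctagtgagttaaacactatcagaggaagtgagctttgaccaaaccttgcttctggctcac

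Kynu (ENSRNOG00000029993, chromosome 3, 28416954 to 28566928), the kynureninase that needs vitamin B6, was the steadiest member in GZM. It had 59.3, 55.0 and 49.3 FPKM in GZM 1, 2 and 3, against 18.7, 14.0 and 27.3 FPKM in GM 1, 2 and 3. Kynu was higher in GZM by 2.25 ± 0.32 on the log2 scale (edgeR adjusted p = 0.00257), the smallest p among the members. Haao (ENSRNOG00000031263, chromosome 6, 7045152 to 7058314), the dioxygenase that opens the ring of hydroxyanthranilate, was the second most abundant member in both groups. Its level was 141.2, 96.3 and 96.5 FPKM in GZM 1, 2 and 3, against 25.3, 21.1 and 53.7 FPKM in GM 1, 2 and 3. GZM 1 was the highest library and GM 3 the highest of GM. The log2 fold change was 2.51 ± 0.44 (edgeR adjusted p = 0.00441), and 3.23 without GM 3.

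At the fork, Qprt, which makes the NAD precursor from quinolinate, and Acmsd, which diverts its precursor, both rose. Qprt (ENSRNOG00000016980, chromosome 1, 198544262 to 198559568) had 62.5, 49.4 and 50.0 FPKM in GZM 1, 2 and 3, against 15.1, 13.1 and 27.2 FPKM in GM 1, 2 and 3. The groups were clear of each other at a log2 fold change of 2.33 ± 0.35 (edgeR adjusted p = 0.003).

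Acmsd (ENSRNOG00000003884, chromosome 13, 44424689 to 44468734) had 1.62, 12.6 and 14.1 FPKM in GZM 1, 2 and 3, against 1.56, 0.24 and 0.83 FPKM in GM 1, 2 and 3. GZM 1, with 22 counts, was close to GM 1, with 23, while GZM 2 and GZM 3 had 189 and 229. The log2 fold change of 4.26 ± 0.88 (edgeR adjusted p = 0.00744) was the largest of the members and came with the largest SE. It was 4.76 without GZM 1, 4.85 without GM 1 and 3.79 without GM 2. Acmsd over Qprt had a mean log2 ratio of -3.02 ± 1.94 in GZM and -4.66 ± 1.26 in GM, with overlapping groups (exact permutation p = 0.3, adjusted p = 0.3 over the 4 ratios). GZM 1, at -5.26 on that ratio, lay within the GM range of -5.71 to -3.26.

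The order of levels was alike in the groups apart from Ido1 and Acmsd. In GZM the mean FPKM ran from Tdo2 (313.6) through Haao (111.3), Kynu (54.5), Qprt (54.0), Kmo (41.1), Afmid (19.9), Acmsd (9.43) and Ido2 (5.21) to Ido1 (0.32). In that order Tdo2 was clear of Haao, Haao of Kynu and Ido2 of Ido1, and every other neighbour overlapped the next in its range over libraries. In GM the order was Tdo2 (87.2), Haao (33.4), Kynu (20.0), Qprt (18.5), Kmo (16.9), Afmid (7.75), Ido1 (6.51), Ido2 (2.41) and Acmsd (0.877). There, only Ido1 against Ido2 and Ido2 against Acmsd were clear of each other.

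The GM libraries differed among themselves in a repeated way. Tdo2, Ido2, Afmid, Kmo, Kynu, Haao and Qprt were all highest in GM 3 and lowest in GM 2. Ido1 had the opposite order, highest in GM 2 and lowest in GM 3. Markers of hepatocytes moved with the members that rose: their summed level was 57030, 56945 and 51862 FPKM in GZM 1, 2 and 3, against 15062, 11191 and 32874 FPKM in GM 1, 2 and 3. Of 21 tested hepatocyte markers 20 rose and none fell, and Cyp2e1 (1.77 ± 0.80, adjusted p = 0.105) did not pass. Without GM 1 the number was 11. The markers' median log2 fold change was 2.42, with a range of 1.37 to 4.33, and all 8 members that rose lay inside that range. In bulk tissue, fewer cells of a type and less RNA per cell cannot be told apart, and the part that hepatocyte content plays in the members' changes was not tested. Kidney is another known site of several of these enzymes. The 5 kidney markers summed to between 1.24 and 1.87 FPKM in GZM and between 1.22 and 1.34 FPKM in GM, with Umod at 0 counts in all libraries. Of the 3 tested, Lrp2 rose by 1.83 (edgeR adjusted p = 0.00403) and Slc34a1 fell by 4.12 (adjusted p = 0.00936). Slc34a1 had 1 count in all of GZM and 42 in all of GM.

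Markers of cells that can carry Ido1 were examined next. All 7 tested macrophage and monocyte markers fell, with a median of -1.08, and their summed level was 783.2, 491.2 and 645.8 FPKM in GZM 1, 2 and 3, against 4092, 3236 and 4078 FPKM in GM 1, 2 and 3. Lyz2 made most of that sum, with 592.2, 371.6 and 478.4 FPKM in GZM 1, 2 and 3, against 3534, 2790 and 3353 FPKM in GM 1, 2 and 3. Only 2 of the 7 markers passed without GZM 2 or without GZM 3, and 3 without GM 1. Dendritic cell markers summed to 68.7, 40.3 and 50.0 FPKM in GZM 1, 2 and 3, against 291.7, 171.2 and 238.8 FPKM in GM 1, 2 and 3. Clec10a made most of that sum, with 44.3, 29.0 and 35.5 FPKM in GZM 1, 2 and 3, against 248.6, 133.5 and 194.2 FPKM in GM 1, 2 and 3. Of 9 tested dendritic cell markers, 2 fell, Clec10a and Itgax, and none rose, a share close to the 21.7% of all tested genes called lower. On library totals 6 fell. Xcr1 (0.55 ± 0.51, edgeR adjusted p = 0.401) and Clec9a (0.07 ± 0.39, edgeR adjusted p = 0.895), which mark the cross-presenting subset, did not pass. None of the tested macrophage or dendritic markers was at 0 in a group. Dividing-cell markers all fell, 8 of 8, and summed to 38.3, 41.9 and 45.5 FPKM in GZM 1, 2 and 3, against 408.8, 580.1 and 164.0 FPKM in GM 1, 2 and 3. As with Ido1, that sum was highest in GM 2 and lowest in GM 3 among the GM libraries. Of the other immune markers, 2 of 11 T and natural killer cell markers fell and none rose, again near the 21.7% of all tested genes. Their median log2 fold change was nevertheless -1.52, with a range of -2.20 to -0.44. The T and natural killer cell list summed to 166.8, 51.3 and 64.4 FPKM in GZM 1, 2 and 3, against 338.6, 361.9 and 555.1 FPKM in GM 1, 2 and 3. For Kupffer cells 3 of 6 markers rose and 1 fell, and none of 6 B and plasma cell markers passed. For neutrophils 1 of 6 markers fell and none rose. Endothelial markers rose in 4 of 7 tested cases and fell in 1, where 22.2% of all tested genes were called higher. On library totals 7 T and natural killer cell markers fell, 1 Kupffer cell marker rose and 2 fell, and 1 B and plasma cell marker fell. On that scale 2 neutrophil markers and 1 endothelial marker fell, and none of either list rose. The part of any of these cells in the change of Ido1 was not tested.

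**Figure D3:**
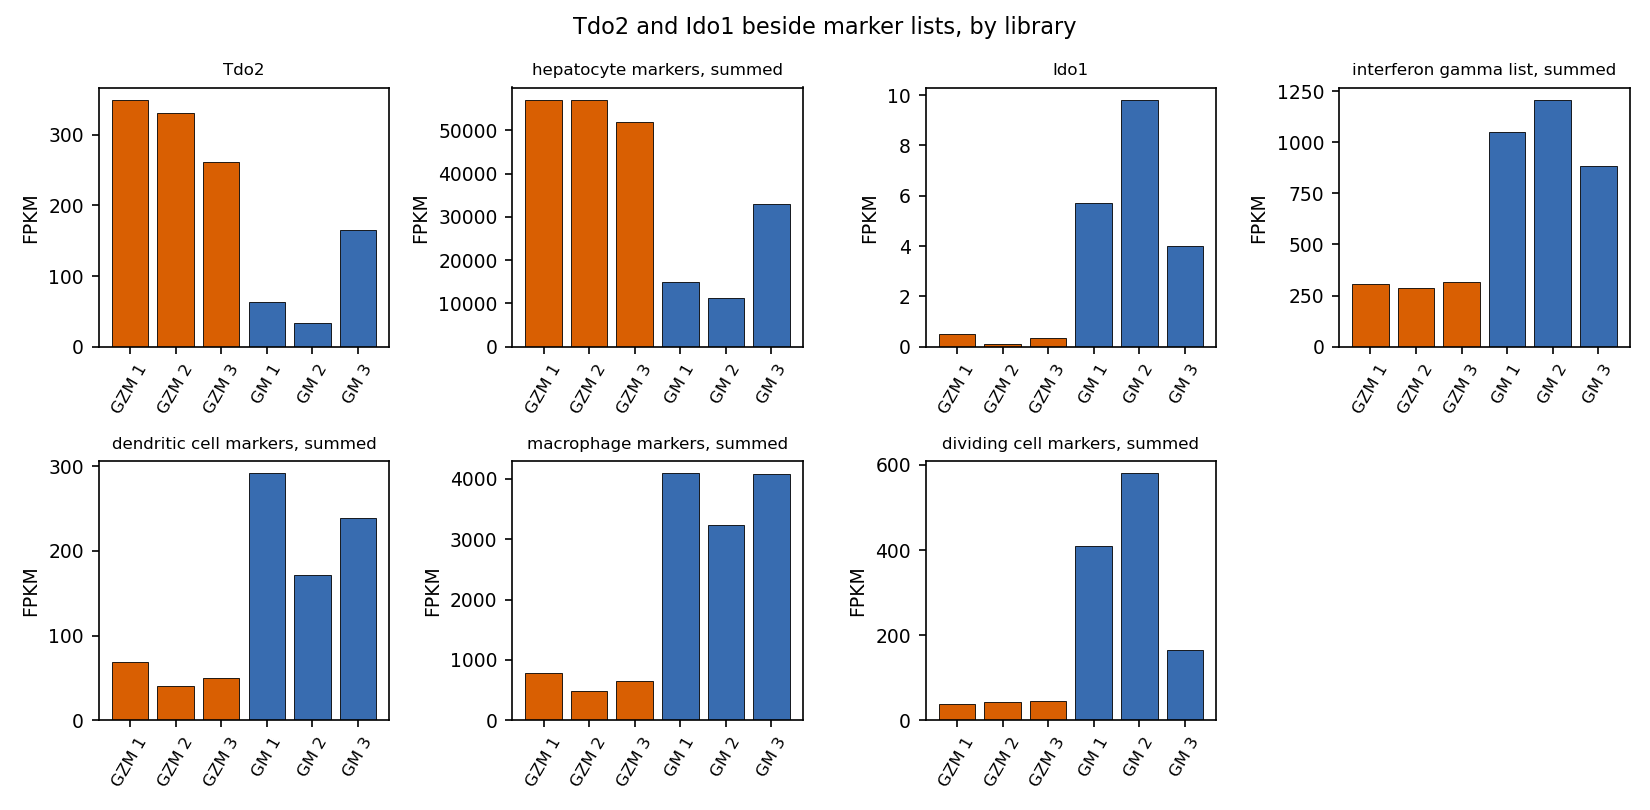
Bars give FPKM per library, GZM in orange and GM in blue, for Tdo2, Ido1 and the summed FPKM of the hepatocyte, dendritic cell, macrophage and dividing cell markers and the interferon gamma genes. Tdo2 and the hepatocyte sum are lowest in GM 2 (34.3 and 11191 FPKM), where Ido1 and the dividing cell sum are highest (9.81 and 580.1 FPKM). Clec10a makes most of the dendritic cell sum and Lyz2 most of the macrophage sum.

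Interferon gamma is the best known inducer of Ido1. Of 14 tested genes of its signal, 10 fell and none rose, with a median log2 fold change of -0.92. Among all tested genes 21.7% were called lower and 22.2% higher. Ifng itself, the cytokine, had 7, 1 and 0 counts in GZM 1, 2 and 3, against 43, 68 and 36 counts in GM 1, 2 and 3. It was named after its values were seen. Its log2 fold change was -3.16 ± 0.83 (edgeR adjusted p = 0.0178), a call lost without GZM 2 (-2.77, adjusted p = 0.0772). It was -5.49 without GZM 1 and -2.50 without GZM 3. The transcription factor Irf1, which switches on Ido1, fell by 1.28, the guanylate-binding protein Gbp2 by 2.42, the class II regulator Ciita by 2.27 and the chemokine Cxcl10 by 1.97. The receptor genes Ifngr1 (-0.02 ± 0.21, adjusted p = 0.935) and Ifngr2 (0.09 ± 0.17, adjusted p = 0.669) did not pass. The summed level of the list was 307.4, 284.9 and 315.8 FPKM in GZM 1, 2 and 3, against 1050, 1207 and 881.5 FPKM in GM 1, 2 and 3, and in GM it had the same order as Ido1.

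Glucocorticoids, which induce Tdo2, have other targets in liver. Of 9 tested genes of that list 4 rose and none fell, with a median of 0.71, where 22.2% of all tested genes were called higher. On library totals 2 rose and 3 fell, with a median of -0.10. Tyrosine aminotransferase (Tat), induced along with Tdo2 in classical work, rose by 3.49 and is also counted among the hepatocyte markers. Hsd11b1, which reactivates the hormone, rose by 2.01, which was 2.76 without GM 3 and did not pass without GM 1 (adjusted p = 0.056). Without GM 1 or without GM 2 the number that rose was 2. The receptor gene Nr3c1 (0.08 ± 0.15, adjusted p = 0.699) and the target Fkbp5 (-0.47 ± 0.21, adjusted p = 0.103) did not pass. Nor did Sgk1 (-0.53 ± 0.28, edgeR adjusted p = 0.151), Tsc22d3 (0.46 ± 0.39, adjusted p = 0.363) and Zbtb16 (0.79 ± 0.80, adjusted p = 0.446). The part that hepatocyte content plays in the changes of this list was not tested.

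The side branches next to the members rose as well. In the branch that turns kynurenine into kynurenic acid, 3 of 4 tested aminotransferase genes rose: Kyat3 by 2.67, Aadat by 2.23 and Kyat1 by 1.96. Without GM 3 these were 3.44, 2.86 and 2.68. Kyat3 had 69.9, 82.4 and 66.3 FPKM in GZM 1, 2 and 3, against 15.8, 10.6 and 32.4 FPKM in GM 1, 2 and 3. The mitochondrial aspartate aminotransferase Got2, which has a broad role in all tissues, had 0.58 ± 0.21 (edgeR adjusted p = 0.0552). In the branch after Acmsd all 3 tested genes rose, Aldh8a1 by 2.77, Dhtkd1 by 2.33 and Gcdh by 1.72. Without GM 3, Aldh8a1 was higher by 3.39 and Dhtkd1 by 3.12. Aldh8a1, the dehydrogenase that follows Acmsd, had 150.4, 161.3 and 151.0 FPKM in GZM 1, 2 and 3, against 34.5, 23.0 and 59.3 FPKM in GM 1, 2 and 3. Unlike Acmsd, it was as high in GZM 1 as in the other GZM libraries.

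Genes of the list of NAD synthesis outside the pathway split. It also holds the NAD kinases Nadk and Nadk2 and the methyltransferase Nnmt, which do not make NAD. Nmnat1 and Nadsyn1, of which Nadsyn1 did not pass, also serve the Qprt route. Of 9 tested, 5 rose and 1 fell, with a median of 1.16. The 5 include Nadk, Nadk2 and Nnmt, the last outside the 4 of smallest p. Without GM 3, where the low-count filter was applied anew and more genes of the list were tested, 8 rose and 2 fell. Naprt, which starts from nicotinic acid, rose by 1.99 and the mitochondrial NAD kinase Nadk2 by 2.28. The adenylyltransferase Nmnat1 rose by 1.16 and the kinase Nadk by 1.26, but neither passed on library totals (0.33, adjusted p = 0.151, and 0.43, adjusted p = 0.0954). The nicotinamide salvage enzyme Nampt, chosen after its values were seen, fell by 0.81. It had 41.4, 59.3 and 57.9 FPKM in GZM 1, 2 and 3, against 168.4, 180.8 and 146.8 FPKM in GM 1, 2 and 3, and its call was lost without GZM 3 (adjusted p = 0.0562). Among 8 tested NAD-consuming genes 3 fell and 2 rose, with a median of -0.40, against 21.7% lower and 22.2% higher among all tested genes. The ectoenzymes Bst1 and Cd38, typical of immune cells, fell by 1.76 and 1.26. Without GM 1 or without GZM 1, 2 of that list fell and none rose, and on library totals 6 fell and none rose.

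**Figure D4:**
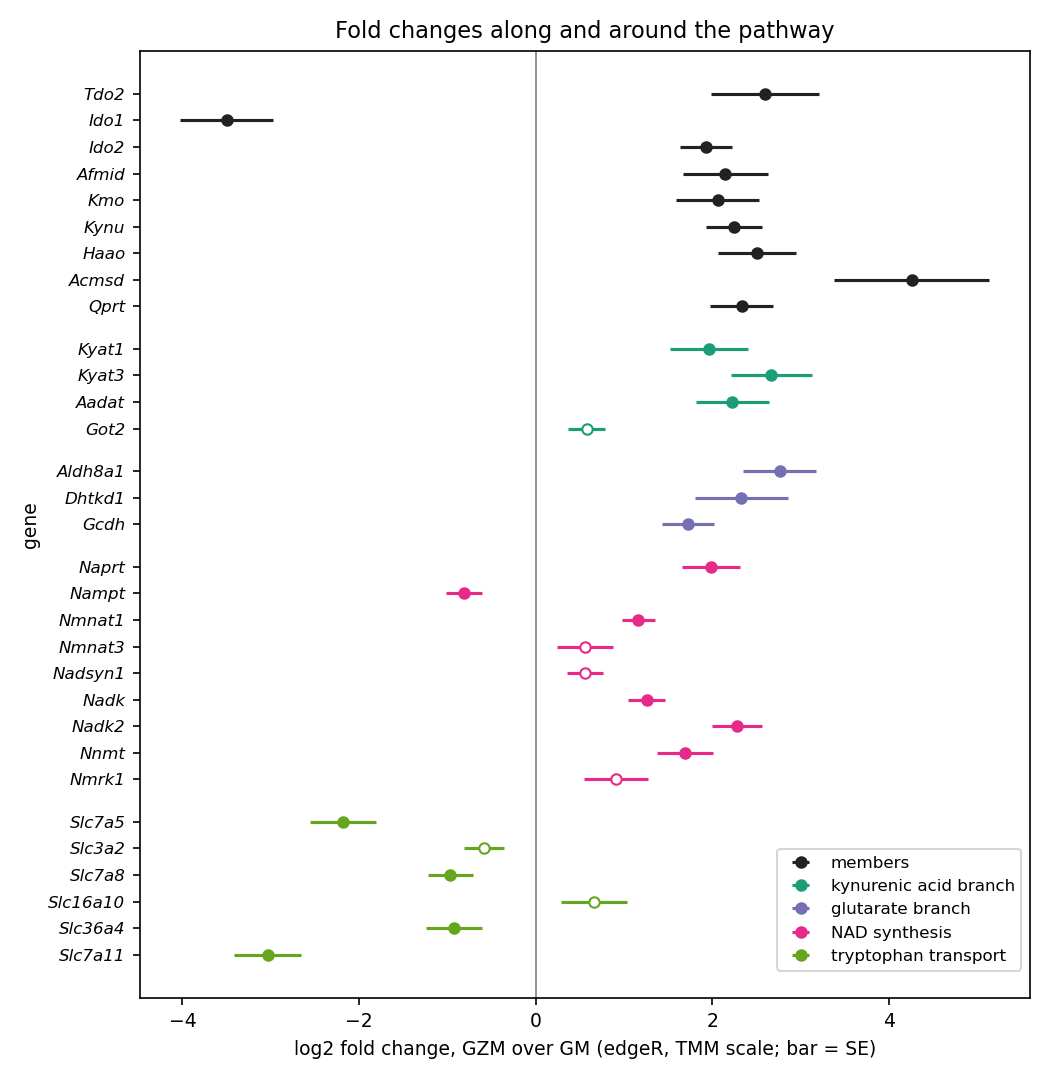
Log2 fold change of GZM over GM with its SE (edgeR, TMM scale) for the members and for tested genes of 4 related lists, filled where the adjusted p was under 0.05. Members and side branches lie to the right of 0 except Ido1 (-3.50), and the genes of the transport list that passed lie to the left.

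The list of amino acid carriers, most of which take tryptophan, had 6 tested genes, with a median of -0.94. Of these 4 fell and none rose, where 21.7% of all tested genes were called lower. Without GZM 2 the number that fell was 2. Slc7a5, the main carrier of tryptophan and kynurenine in dividing and activated cells, had 3.44, 2.14 and 2.23 FPKM in GZM 1, 2 and 3, against 17.0, 35.3 and 12.2 FPKM in GM 1, 2 and 3. It fell by 2.18, and in GM it was highest in GM 2, as Ido1 was. Slc7a11, counted in that list although it exchanges cystine for glutamate and does not carry tryptophan, fell by 3.03. Slc16a10, a carrier of aromatic amino acids, did not pass (0.66 ± 0.38, edgeR adjusted p = 0.187). Slc7a8 fell by 0.96, a call lost without GZM 2 (adjusted p = 0.0719) or GM 1 (0.0584).

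Outside the kynurenine route, 2 of 8 tested genes of other tryptophan fates rose and 2 fell, with a median of 0.45, or -0.38 on library totals. These shares are close to those of all tested genes, 22.2% called higher and 21.7% lower. The amine oxidase Maob rose by 2.39. Wars1, the tryptophanyl-tRNA synthetase that interferon gamma also induces, fell by 0.88. Inmt, a methyltransferase of indole amines, had 2, 2 and 0 counts in GZM 1, 2 and 3, against 34, 68 and 25 counts in GM 1, 2 and 3. It fell by 3.92, and its log2 fold change was -3.26 without GZM 3. Il4i1, an enzyme of immune cells that oxidizes tryptophan, did not pass (0.43 ± 0.41, adjusted p = 0.418).

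Kynurenine and kynurenic acid are ligands of the aryl hydrocarbon receptor. Its gene Ahr did not pass (-0.21 ± 0.16, adjusted p = 0.294). Of 7 tested genes of the receptor's list 1 rose and 3 fell, with a median of -0.41, against 22.2% higher and 21.7% lower among all tested genes. Without GM 1, 2 fell and none rose. Cyp1a2, a hepatocyte P450, rose by 2.43, which was 3.53 without GM 3 and did not pass without GM 1 (adjusted p = 0.0561). Aldh3a1 fell by 4.63, and its log2 fold change was -3.77 without GM 2. On library totals 1 of the list rose and 5 fell. Cyp1a1, the most used readout of the receptor, had 1, 5 and 14 counts in GZM 1, 2 and 3, against 2, 2 and 7 counts in GM 1, 2 and 3, and was not tested. Genes that supply vitamin B6, the cofactor of Kynu and the aminotransferases, rose in 3 of 5 tested cases and fell in none, with a median of 1.94. On library totals 3 of them rose and 2 fell.

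The profiles nearest to Tdo2 and Ido1 over the 6 libraries were found by the root mean square difference of log2 CPM, each gene centred on its own mean. Nearest to Tdo2 were Ftcd (0.0754), an enzyme of histidine breakdown, Sult2a1 (0.0907), a sulfotransferase of steroids and bile acids, and Fgl1 (0.0968), a protein secreted by hepatocytes. Ftcd had 76.9, 79.7 and 60.5 FPKM in GZM 1, 2 and 3, against 14.2, 8.82 and 39.4 FPKM in GM 1, 2 and 3. Nearest to Ido1 were Slc14a1 (0.283), a urea transporter, Wnt6 (0.308), a Wnt ligand, and Nudt10 (0.359). Slc14a1 had 1.01, 0.21 and 0.46 FPKM in GZM 1, 2 and 3, against 6.41, 12.5 and 4.07 FPKM in GM 1, 2 and 3. It was picked for its nearness to Ido1 in these same libraries, so their shared order of libraries is no separate result. The nearest profiles to Ido1 were farther from it than those of Tdo2 were from Tdo2. Ido1 had only 8, 2 and 7 counts in GZM 1, 2 and 3, against 8246, 8620 and 7362 for Tdo2. The part of count noise in these distances was not tested.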

How the data were processed

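RNA was extracted with TRIzol, enriched for poly(A) RNA and made into strand-specific paired-end libraries, per the labels' protocols. The deposited table holds counts per gene, whole and not normalized, and FPKM values, per the file headers. The deposited FPKM match each count over exon length over the library's summed count, to within 0.01 in all 195738 values. The exon length, in bases per the file headers, is the other deposited column used. The sources used here do not give the aligner, the counter or its use of strand, so overlapping and antisense genes are uncertain. The build is mRatBN 7.2 per the submitters' processing notes, but deposited positions on chromosome 1 reach 282724300, beyond that build. The build of the deposited positions is thus unsettled, and promoters are from GRCr8. Columns headed ZGM were matched to the GZM titles by letters and number.

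Counts were tested with edgeR 4.0.16 (R 4.3.3), quasi-likelihood, TMM factors (0.742, 0.715 and 0.793 for GZM 1 to 3, against 1.43, 1.42 and 1.17 for GM 1 to 3) and the default low-count filter, with Benjamini-Hochberg adjustment over 14298 genes. The step was tested on simulated data in which few genes changed, evenly in both directions. That run does not test the scaling of data in which 44.0% of genes passed. Values given as rose or fell by are log2 fold changes. Each TMM-scale count of list genes that rose or fell stands beside 22.2% of all tested genes called higher and 21.7% called lower. Members and lists were chosen with earlier results of these data known. Genes named in a list are among the 4 of smallest p that passed, unless said otherwise or given as not passed. Log2 ratios within a library used FPKM + 0.01, and ratios given as folds used the deposited FPKM. Alternatives used DESeq2 1.42.0 and limma 3.58.1 (FPKM). No replicate pair had counts within sampling noise of each other (chi-square per degree of freedom of at least 11.2), so none was treated as a repeat deposit of another. This does not show that they are separate animals.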

Additional observations from a re-analysis of the deposited data

How the results depend on the processing

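Over 15 alternatives for each of the 9 members, 134 of 135 values kept their direction and call. The exception was Afmid with limma on log2(FPKM + 0.1) without a low-value filter (1.25, adjusted p = 0.0528), where 8 members passed. The number of genes changed, 6285, was 9828 with library totals, 9922 and 9843 with limma on log2(FPKM + 0.1) and log2(FPKM + 1), and 9894 with limma and no low-value filter. It ran from 3777 (without GZM 2) to 7024 (without GM 3) when a library was left out, while all 9 members passed each time. The Tdo2 over Ido1 difference ran from 5.71 to 7.49 with a library left out, and was 4.56 with a pseudocount of 1. Got2 turned negative with library totals (-0.27) and with limma on log2(FPKM + 0.1), with and without the filter (-0.25 each), and on log2(FPKM + 1) (-0.25). Over all alternatives the number changed ran from 4 to 10 for NAD synthesis, 2 to 7 for NAD use, 2 to 5 for the transport list, 2 to 6 for the aryl hydrocarbon receptor and for glucocorticoid genes, 2 to 5 for vitamin B6, 7 to 14 for interferon gamma genes, 11 to 21 for hepatocyte markers, and 2 to 7 for macrophage and for dendritic markers. The cause of these moves was not tested. Leaving out both GM 3 and GZM 1, chosen after seeing the data, kept all 9 members (Tdo2 3.61, Ido1 -4.03, Acmsd 4.90).

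Same-numbered GZM and GM libraries deviated from their group means with correlations of -0.14, 0.16 and -0.27 for numbers 1, 2 and 3, so the numbers were not taken to pair them. With the replicate number as a block, 5166 genes changed, all 9 members among them. The Tdo2 over Ido1 difference was then 6.57 (exact sign-flip p = 0.25, the smallest that 3 pairs allow). Ido1 in GZM (17 counts) and Acmsd in GM (41 counts) are limited by depth.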
